A study of Caenorhabditis elegans with 18 samples.

Results

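mir-244 is a microRNA of Caenorhabditis elegans, and its level was followed in young adult worms of 6 genotypes with 3 small RNA libraries each. It is 1 of 176 miRNA names in the deposited counts and 1 of the 139 miRNAs that passed a filter on low counts. It was chosen by its measured values: its level was higher when alg-1 or dpf-3 was lost alone, and close to wild type when both were lost together. The libraries of all 6 genotypes entered that choice, so the levels of mir-244 are described here without a test.

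A miRNA is cut from a hairpin transcript and loaded into an Argonaute protein, which it guides to messenger RNAs with matching sites. In the worm, most miRNAs outside the germline are carried by the Argonautes ALG-1 and ALG-2, and a miRNA that is not held by an Argonaute is usually degraded. dpf-3 encodes a dipeptidyl peptidase of the DPPIV family, an enzyme that removes pairs of amino acids from the start of proteins. The design sets loss of either Argonaute gene, of dpf-3, and of one together with the other against wild type.

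Wild type was N2 (Bristol). The mutants were dpf-3(xe68) on chromosome I, alg-1(gk214) on chromosome X, alg-2(ok304) on chromosome II, and the double mutants dpf-3(xe68);alg-1(gk214) and dpf-3(xe68);alg-2(ok304). They are called dpf-3, alg-1, alg-2, dpf-3;alg-1 and dpf-3;alg-2 below. All worms were kept at 25 °C on NGM plates seeded with OP50, and RNA came from pellets of whole animals. In such bulk samples a change in the number of cells that make a miRNA and a change in its amount per cell cannot be told apart. The transcripts of the mutated genes are not among the counts, so the labels could not be checked on them.

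In the WBcel235 annotation mir-244 lies on the minus strand of chromosome I and overlaps 0 other genes. It sits between the long non-coding RNA linc-39 and the protein-coding gene chd-7, both on the same strand. The nearest miRNA gene that the files list is mir-353, which had 0 counts in 18 of 18 libraries. dpf-3 is on the same chromosome as mir-244, while alg-1 and alg-2 are not.

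mir-244 had between 592 and 5631 counts per library, out of library totals of 7.78 to 22.5 M counts, so counting error was between 1.33% and 4.11% of its level. Its deposited count was a whole number, within 1e-06, in each library. Levels are given as CPM, the count scaled to a common library total, with a TMM factor for composition. A read covers a whole miRNA, so CPM was not divided by length. On the log2 scale mir-244 varied between libraries of a genotype by 0.25 (pooled SD), against a median of 0.17 over the tested miRNAs.

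In wild type mir-244 stood at 73.7, 63.9 and 65.5 CPM, a mean of 67.7 ± 5.24 (SD, n = 3), and was the 93rd of 139 miRNAs by mean level. The miRNAs next to it in that order were mir-357 and mir-794 above it, at 71.7 ± 4.93 and 69.8 ± 4.29 CPM, and mir-1817 and mir-1829c below it, at 55.3 ± 9.35 and 50.5 ± 2.75 CPM (SD, n = 3 each). mir-244 is thus one of the rarer miRNAs of wild type worms, with 1067 to 1184 counts in a library.

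In alg-1 the libraries held 389, 478 and 439 CPM of mir-244, a mean of 435 ± 44.7 (SD, n = 3). All 3 lay far above every library of the other genotypes, and the mean was 6.43 times that of wild type. The edgeR estimate was a log2 difference of 2.68 (SE 0.19), the 5th highest rise among 139 miRNAs. By count within the library, a measure that needs no scaling, mir-244 moved from place 88 to 93 of 175 in wild type to place 59 or 60 in alg-1.

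In dpf-3 the libraries held 129, 148 and 105 CPM, a mean of 127 ± 21.6 (SD, n = 3), which is 1.88 times the wild type mean. The lowest of them was above the highest wild type library. The log2 difference was 0.91 (SE 0.18), the 9th highest rise.

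In dpf-3;alg-1 the libraries held 59.8, 75.7 and 63.5 CPM, a mean of 66.3 ± 8.32 (SD, n = 3). This range overlapped that of wild type, with a log2 difference of -0.03 (SE 0.18, 95% interval -0.43 to 0.37). Set against alg-1, mir-244 was lower by a log2 difference of -2.71 (SE 0.19), and set against dpf-3 by -0.94 (SE 0.18). From the highest rise down, these were places 136 and 120 of 139 miRNAs. No library of dpf-3;alg-1 reached the lowest library of either single mutant.

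Markers of some cell types also differed between these genotypes. The mir-35 family, known from oocytes and embryos, took a mean of 12.6% of counts in wild type, 2.42% for dpf-3, 0.339% for alg-1 and 6.23% when both were lost. Its member mir-42 went the other way in alg-1, at 0.35 on the log2 scale. mir-228, a glial miRNA, took 0.530% to 0.579% of counts in wild type, 0.705% to 0.924% for dpf-3, 1.89% to 2.05% for alg-1 and 0.606% to 0.791% when both were lost. The 5 neuron markers were detected in every genotype. They summed to 0.123% ± 0.00512 in wild type, 0.129% ± 0.0256 for dpf-3, 0.226% ± 0.0362 for alg-1 and 0.221% ± 0.0398 when both were lost (SD, n = 3 each). The ranges of alg-1 and the double mutant overlapped. mir-790 and mir-793 were the most abundant of the list, at 1693 and 609 CPM in alg-1, so the sum mostly follows them. Set against alg-1 on the log2 scale, the double mutant was at -0.96 for mir-124, -0.87 for mir-791, -0.31 for mir-790, -0.26 for lsy-6 and 0.07 for mir-793. Of these 5, edgeR's quasi-likelihood test called 2 lower and 0 higher, against 58 and 48 of all 139. The muscle miRNA mir-1 took 14.2% to 16.3% in wild type, 15.5% to 18.7% for dpf-3, 13.7% to 14.2% for alg-1 and 17.1% to 18.7% when both were lost, where every library was above wild type. These shares are of library totals, of which the mir-35 family took 12.6% in wild type and 6.23% when both were lost. With TMM that difference of mir-1 was 0.15 on the log2 scale, and edgeR's quasi-likelihood test did not call it. Both intestine markers together took 0.210% to 0.267% in wild type, 0.221% to 0.234% for dpf-3, 0.298% to 0.346% for alg-1 and 0.221% to 0.238% when both were lost. In alg-1 they went opposite ways, mir-60 at 0.65 and mir-243 at -0.32 on the log2 scale. When both genes were lost, mir-60 was at -0.07 and mir-243 at -0.69 against wild type. The part of these cells in the level of mir-244 was not tested.

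**Figure D1:**
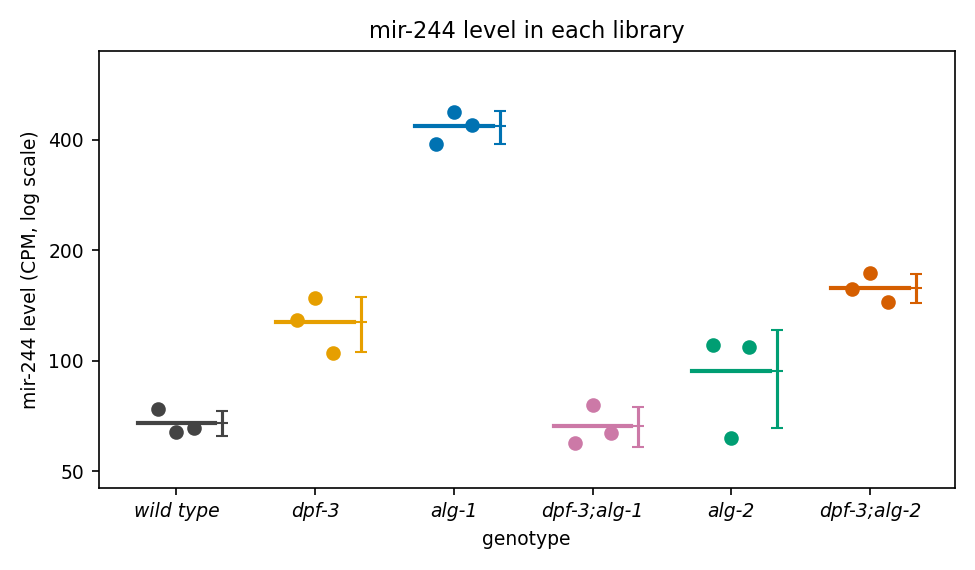
mir-244 level in CPM (log axis) in each of the 18 libraries by genotype; points are libraries, horizontal lines are means and error bars are SD (n = 3). The alg-1 libraries lie between 389 and 478 CPM, and those of dpf-3;alg-1 lie between 59.8 and 75.7 CPM, a range that overlaps wild type.

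Many miRNAs were higher in these mutants, and about as many were lower. By edgeR's quasi-likelihood test at a Benjamini-Hochberg adjusted p below 0.05, 42.4% of the tested miRNAs were called higher in alg-1 than in wild type, 15.8% in dpf-3 and 25.9% in dpf-3;alg-1. Called lower by the same test were 58 of 139 in alg-1, 25 in dpf-3 and 43 in dpf-3;alg-1, against 59, 22 and 36 higher. With dpf-3;alg-1 set against alg-1, 58 of 139 were called lower and 48 higher. Set against dpf-3, 41 were called lower and 40 higher, so a lower level in the double mutant was common. These calls stand beside mir-244 as background only, since the same contrasts chose it. 8 miRNAs were called higher in both alg-1 and dpf-3, and 7 of them were not called higher in dpf-3;alg-1. mir-244 is among the 7 because it was chosen that way, which is no test of it, and mir-48 was the exception.

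The other miRNAs with this pattern were mir-788, mir-230, mir-2208b-3p, the glial miRNA mir-228, mir-227, and lin-4, which times larval development. mir-788 rose by 1.33 (SE 0.39) in alg-1 and 2.07 (SE 0.39) in dpf-3, and was below wild type in the double mutant, at -1.94 (SE 0.44) on the log2 scale. mir-230 rose by 1.66 (SE 0.20) and 0.70 (SE 0.20) and stood at 0.19 (SE 0.19) when both were lost. mir-228 rose by 1.90 (SE 0.13) and 0.43 (SE 0.13) and stood at 0.29 (SE 0.13).

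The remaining members of the pattern were mir-2208b-3p, mir-227 and lin-4. mir-2208b-3p, with a wild type mean of 2.26 CPM, rose by 2.05 (SE 0.20) in dpf-3 and 0.53 (SE 0.23) in alg-1. mir-227 rose by 0.33 (SE 0.12) in dpf-3 and 1.15 (SE 0.12) in alg-1, and lin-4 by 0.28 and 0.52 (SE 0.09 each). mir-227 was also below wild type in the double mutant, at -0.95 (SE 0.12), where mir-2208b-3p stood at 0.13 (SE 0.24) and lin-4 at 0.06 (SE 0.09). The count of 7 is not firm: it was 2 without wild type replicate 1, 4 without wild type replicate 3, 3 without dpf-3 replicate 2 and 26 with upper quartile factors.

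In alg-2 the libraries held 110, 61.4 and 109 CPM, a mean of 93.5 ± 27.8 (SD, n = 3). alg-2 replicates 1 and 3 lay above every wild type library and replicate 2 lay below all of them, so the genotypes overlap. The log2 difference from wild type was 0.47 (SE 0.18), and 0.69 without alg-2 replicate 2. Of the 5 mutant genotypes, 3 had all libraries above wild type (alg-1, dpf-3 and the alg-2 double mutant), while alg-2 and the alg-1 double mutant overlapped wild type. The labels give a library name only for the 6 libraries of alg-2 mutants (single and double), so their difference from wild type cannot be told apart from one between library sets.

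Loss of dpf-3 in alg-2 worms was compared within that set. The dpf-3;alg-2 libraries held 156, 174 and 145 CPM of mir-244, a mean of 158 ± 14.6 (SD, n = 3). Every one of them was above every alg-2 library. The log2 difference was 0.76 (SE 0.18), or 1.69-fold, the 13th highest of 139 miRNAs. It carries no test, since these libraries entered the choice of mir-244. In this comparison edgeR's test called 12.9% of the tested miRNAs higher and 5.76% lower.

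alg-2 replicate 2 carries part of that difference: without it the log2 difference was 0.53. By count within the library, mir-244 held place 82 to 90 in alg-2 and 75 to 81 in dpf-3;alg-2.

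Most marker miRNAs did not pass the test in this comparison. Nor did most of all tested miRNAs, of which 12.9% were called higher and 5.76% lower. The mir-35 family, known from oocytes and embryos, had 8 of 8 members detected, and took 0.398% to 0.495% of counts before and 0.440% to 0.466% after loss of dpf-3. Of its members and of 6 miRNAs that time development, 0 passed edgeR's test, and the medians of their log2 differences were 0.02 and 0.0004, against -0.0054 over all tested miRNAs. Of 6 miRNAs linked to ageing or stress 1 rose, mir-246 (edgeR adjusted p = 0.0030), and 1 fell, mir-34 by 0.53 on the log2 scale (edgeR adjusted p = 0.0030), and of 2 intestine markers 0 passed. Of the 5 neuron markers 1 passed, mir-790, which fell by 1.002 on the log2 scale (SE 0.21, edgeR adjusted p = 0.0030), and the list's share was 0.143% to 0.170% of counts in alg-2 and 0.0729% to 0.106% in the double mutant. mir-790 was the most abundant of the list, at 1173 CPM in alg-2 and 585 in the double mutant, so the share mostly follows it. The others were at -0.45 (mir-791), -0.18 (mir-793), -0.10 (lsy-6) and -0.09 (mir-124), and none passed. The glial mir-228 was at 0.05 (SE 0.13) and the muscle miRNA mir-1 at -0.09 (SE 0.10), and neither passed. The part of these cell types in the difference of mir-244 was not tested.

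**Figure D2:**
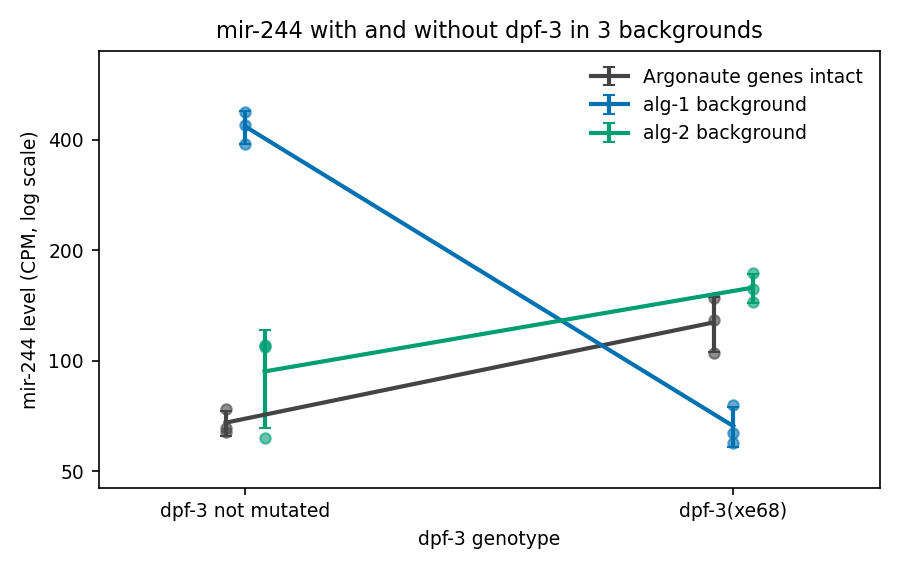
mir-244 level in CPM (log axis) with dpf-3 not mutated (left) and in dpf-3(xe68) (right), in worms with intact Argonaute genes, in alg-1 and in alg-2. Points are libraries, and lines join means with SD (n = 3). The lines rise from 67.7 to 127 and from 93.5 to 158 CPM, and the alg-1 line falls from 435 to 66.3 CPM.

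Loss of dpf-3 thus went with more mir-244 in worms with intact Argonaute genes and in alg-2, and with less in alg-1. The log2 effect of dpf-3 loss in alg-1 minus that in wild type was -3.62 (SE 0.26), and the effect in alg-1 minus that in alg-2 was -3.47 (SE 0.26). The effect in alg-2 minus that in wild type was -0.15 (SE 0.26, 95% interval -0.71 to 0.41). All of these use libraries that chose mir-244, so they carry no test.

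Ordered by mean level, mir-244 was highest in alg-1, followed by dpf-3;alg-2, dpf-3, alg-2, wild type and dpf-3;alg-1. The step from alg-1 to dpf-3;alg-2 was 277 CPM, larger than the sum of both SDs (59.3), with no overlap. At each of the other steps the libraries of the neighbours overlapped, and the difference in means was below the sum of their SDs, 31.0 against 36.2 CPM between dpf-3;alg-2 and dpf-3 and 1.42 against 13.6 CPM between wild type and dpf-3;alg-1. alg-1 and alg-2, the Argonaute single mutants, differed by a log2 difference of 2.22 (SE 0.19). The double mutants differed by -1.25 (SE 0.18), with dpf-3;alg-1 below dpf-3;alg-2. Both differences, and the places of the alg-2 genotypes in the order, cross the library sets, so genotype and set cannot be told apart in them.

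**Figure D3:**
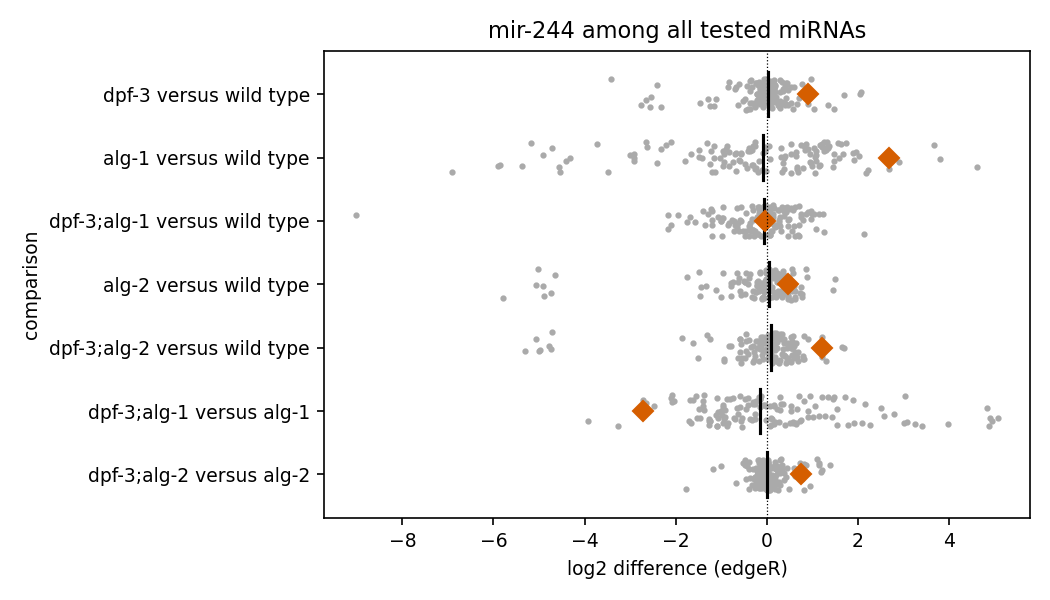
Log2 differences of the 139 tested miRNAs (grey points, spread vertically for display) in 7 comparisons, with mir-244 as a diamond and the median of all miRNAs as a black bar. mir-244 lies at 2.68 for alg-1 against wild type, at -0.03 for dpf-3;alg-1 against wild type and at 0.76 for dpf-3;alg-2 against alg-2.

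The share of the mir-35 family differed between the genotypes and is part of the total behind each CPM value.  In wild type it was 12.6% ± 0.916 of counts, against 2.42% ± 0.680 for dpf-3, 0.339% ± 0.00890 for alg-1 and 6.23% ± 2.45 when both were lost (SD, n = 3 each). In the alg-2 mutant it was 0.431% ± 0.0555, and in its double mutant with dpf-3 it was 0.453% ± 0.0132 (SD, n = 3 each). With library totals alone, and no TMM factor, mir-244 stood at 67.1 ± 6.71 CPM in wild type, 135 ± 25.0 for dpf-3, 406 ± 56.7 for alg-1 and 70.0 ± 12.9 when both were lost (SD, n = 3 each). With the family then taken out of those totals, it stood at 76.8 ± 6.87, 138 ± 24.8, 407 ± 56.9 and 74.4 ± 12.3 CPM in the same order (SD, n = 3 each). In the alg-2 mutant the step was from 92.6 ± 27.4 to 93.0 ± 27.5 CPM, and in its double mutant with dpf-3 from 155.8 ± 11.5 to 156.5 ± 11.6 CPM (SD, n = 3 each). The order of wild type and dpf-3;alg-1 thus changed with the scaling, and their means lay closer together than either SD each time. Wild type was lower by library totals, and higher with TMM or with the family taken out of those totals. An edgeR fit with TMM but without the family put it lower, with dpf-3;alg-1 at a log2 difference of 0.05 from wild type.

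The scaling set the size of the differences. For alg-1 against wild type, the median over all tested miRNAs was -0.08 with TMM and 1.07 with upper quartile factors, which moved mir-244 from 2.68 to 3.85. A scaling shifts all miRNAs of a library alike, so the distance of mir-244 from that median changes little by construction. It was 2.77 to 2.80 over 4 scalings. For dpf-3 against wild type the same measure was 0.89 to 0.91, for dpf-3;alg-1 against wild type 0.03 to 0.04, for alg-2 against wild type 0.40 to 0.41, and for dpf-3;alg-2 against alg-2 0.76 to 0.78.

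The miRNAs most like mir-244 were found by Pearson's correlation of mean log2 CPM over the 6 genotypes, among the 115 miRNAs that averaged 10 CPM or more. These are descriptions over 6 points that share their libraries and scaling. The highest were mir-44/45 (r = 0.98), mir-2 (0.95), mir-67 (0.94), mir-228 (0.94), mir-57 (0.94) and mir-79 (0.93). Each was highest in alg-1 and lower again in dpf-3;alg-1, but by smaller amounts than mir-244. The rise in dpf-3 was small or absent in most of them. In the same order, their changes in mean log2 level from wild type there were 0.17, 0.003, 0.18, 0.43, -0.02 and 0.10, against 0.90 for mir-244.

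mir-44/45, a pair of identical miRNAs counted as one, went from 94483 ± 7109 CPM in wild type to 218821 ± 17710 in alg-1, and stood at 91129 ± 10785 in dpf-3;alg-1 (SD, n = 3 each). It was far more abundant than mir-244 in every genotype. mir-67, at 14.9 ± 1.32, 33.5 ± 2.15 and 15.7 ± 1.78 CPM in the same genotypes, was rarer than mir-244. mir-228 was nearest of the 6 in size, with changes in mean log2 level from wild type of 0.43 in dpf-3, 1.90 in alg-1 and 0.29 in their double mutant, against 0.90, 2.68 and -0.04 for mir-244.

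mir-247, chosen after its values were seen, was the closest of all 115 in the size of its changes, with a root mean square log2 difference from mir-244 of 0.49 over the 5 mutants and an r of 0.89. Its changes from wild type were 0.69 in dpf-3 and 2.90 in alg-1, but it stood at 0.81 in their double mutant, where mir-244 was at -0.04. Of the 6 most alike, the highest log2 difference between alg-2 and dpf-3;alg-2 was that of mir-79, at 0.45 (SE 0.14), against 0.76 for mir-244. With RLE factors or none the same 6 miRNAs came out, with upper quartile factors 4 of them, and without the 6 libraries of alg-2 mutants 3.

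**Figure D4:**
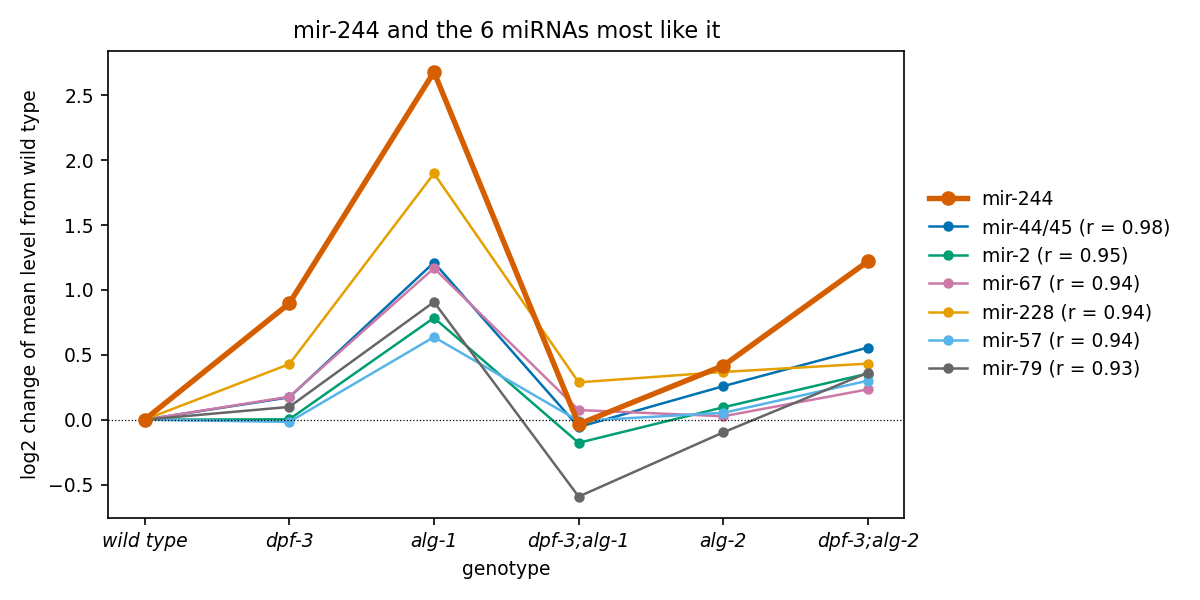
Change in mean log2 level from wild type in each genotype (0 in wild type by construction) for mir-244, thick line, and the 6 miRNAs with the highest Pearson correlation to it over the 6 genotypes. All 7 peak in alg-1, and mir-244 has the highest values in dpf-3, alg-1 and dpf-3;alg-2.

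The miRNAs least like mir-244 were mir-66 (r = -0.89), mir-246 (-0.88), a miRNA linked to ageing, and mir-240 (-0.87). mir-246 went from 4833 ± 345 CPM in wild type to 205 ± 8.80 in alg-1, and stood at 6343 ± 1394 in dpf-3;alg-1 (SD, n = 3 each), the opposite course to mir-244. Between alg-2 and dpf-3;alg-2, however, mir-246 was higher by 0.72 (SE 0.16) on the log2 scale, in the same direction as mir-244.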

How the data were processed

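Per the labels' protocols, small RNA libraries were prepared with NEBNext reagents from Trizol-extracted RNA and size-selected on a gel at about 140 bp. Bowtie 0.12.7 is named in the submitters' processing notes. The build, annotation and counter were not given in the sources used, and coordinates and sequences are therefore not printed. The authors deposited expected counts per miRNA, not normalized, in a column that sums a pair of others, of which the second was 0 for mir-244 throughout. They were rounded, and mir-44 and mir-45, identical in every library, were summed.

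Counts were tested with edgeR 4.0.16 (R 4.3.3): TMM factors (0.876 to 1.10), a filter of at least 10 counts in the smallest group and 15 in total, 1 fit over 18 libraries with genotype as the term (12 residual degrees of freedom), robust quasi-likelihood, Benjamini-Hochberg adjustment over 139 miRNAs. SE comes from the log2 difference and its F statistic. Alternatives were other scalings, filters, DESeq2 1.42.0, limma-voom (limma 3.58.1), a replicate block, and leaving out each library.

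mir-244 and the lists were chosen with earlier results of these data known. dpf-3;alg-2 against alg-2 had been set as a test of mir-244, but its choice also used these libraries, so no p is given. Named miRNAs are the 6 most and 3 least alike, those with the same pattern, and 4 neighbours in level. Others are said to be chosen later. Libraries with the same replicate number correlated in their deviations by over 0.1 in 14 of 45 pairs, and between alg-2 and dpf-3;alg-2 by -0.13 to 0.26, so they were not taken as paired there. alg-1 and alg-2 passed 0.1 at each number (0.14 to 0.27). Whether replicates came from separate cultures is not stated, and p-values then reflect no more than how these libraries vary, perhaps for technical reasons. Every pair of replicate libraries differed by more than sampling noise.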

Additional observations from a re-analysis of the deposited data

Results flagged for a closer look

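The effect of dpf-3 loss on mir-244 ran in opposite directions in different backgrounds, with every library on its side. All dpf-3 libraries lay above all wild type libraries, and all dpf-3;alg-1 libraries lay below all alg-1 libraries, a difference between the log2 effects of -3.62. All dpf-3;alg-2 libraries lay above all alg-2 libraries, and the effect in alg-1 minus that in alg-2 was -3.47. These differences were not tested, because the values behind them chose mir-244.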

How the results depend on the processing

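The log2 difference of mir-244 on loss of dpf-3 in alg-2 worms was 0.69 to 0.83 in 11 other settings, of which 1 used only the alg-2 and dpf-3;alg-2 libraries (0.74), and 0.53 to 0.89 in 18 fits that left out a library. With the replicate number as a block it was 0.75, and for alg-1 against alg-2 it was 2.21. Of 203 values under settings other than leaving out a replicate, 178 stayed within the spread or the threshold and 25 moved, most with upper quartile factors.

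Against wild type, upper quartile factors gave 1.24 in dpf-3 and 3.85 in alg-1, while alg-2 stood at 1.27 and its double mutant with dpf-3 at 2.09. They gave -3.84 for dpf-3;alg-1 against alg-1, -1.22 against dpf-3 and -2.07 against dpf-3;alg-2, 0.85 for dpf-3;alg-2 against dpf-3, 2.59 for alg-1 against alg-2, and -5.07 and -4.66 for the effect of dpf-3 loss in alg-1 minus that in wild type and in alg-2. With no composition factor dpf-3;alg-1 against alg-1 was -2.54. Without the mir-35 family it was -2.51, dpf-3;alg-1 against dpf-3;alg-2 was -1.10 and the effect in alg-1 minus wild type -3.42. A filter of 10 CPM in 3 libraries gave 2.52 for alg-1 against wild type and -3.42 for that effect. The causes were not tested.

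Between alg-2 and dpf-3;alg-2, 18 miRNAs were called higher and 8 lower. The lower count was 14 with RLE factors, with DESeq2 and without the mir-35 family, and 5 with upper quartile factors or the stricter filter. Leaving out a library gave 5 (alg-2 replicate 1 or 3, or dpf-3;alg-2 replicate 2) to 13 (dpf-3 replicate 2). The pattern that chose mir-244 was shared by 7 miRNAs, by 26 with upper quartile factors, by 4 with DESeq2 or the stricter filter, and by 2 to 7 with a library left out.

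Leaving out a library gave 2.42 to 2.76 for alg-1 against wild type, -2.82 to -2.45 for dpf-3;alg-1 against alg-1, and -3.75 to -3.25 and -3.61 to -3.19 for the effect in alg-1 minus wild type and minus alg-2. The value nearest 0 came each time without dpf-3 replicate 2, the library that edgeR takes as its reference for TMM.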
